A study of Mus musculus with 8 samples.

Results

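Macrophages are a minority of the cells in brown adipose tissue, and the 32 genes described here mark them or the antigen presentation that they share with dendritic cells and B cells. The genes were chosen by name from known macrophage and antigen presentation markers, by a rule that uses no measured value, although earlier results of these data were known when the list was drawn up. All 32 of 32 were found in the value table, each as a single probe set, out of 21115 probe sets in all. They were read in 6 groups by role: 9 pan-macrophage genes, 6 genes of resident-type macrophages, the 3 chains of complement C1q, 4 Fc receptor and adaptor genes, 6 inflammatory and lipid-associated genes, and 4 genes of MHC class II (major histocompatibility complex class II, the surface molecules that show peptides to helper T cells). Of the 32 probe sets 28 had a mean above the 40th percentile of all probe sets, while Clec10a, Vsig4, Fcgr1 and Itgax lay below it.

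The arrays came from brown adipose tissue of 4 GRBATKO mice, named for a knockout of the glucocorticoid receptor (GR) in brown fat (BAT), and of 4 control mice. The labels name the controls wild type and the design text names them Flox, so whether they carried the unrecombined floxed allele is not settled. The 8 mice entered the cold at 16 to 20 weeks of age and spent 1 week at 5 °C; no warm-housed mice were analysed here. The sources used here do not give the promoter that drives the recombinase, nor the state of the receptor in macrophages of this tissue.

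Macrophages of fat depots take up dead cells and lipid, clear debris through scavenger and Fc receptors, and secrete complement and cytokines. Signalling through the colony-stimulating factor 1 receptor keeps them alive. Glucocorticoids act directly on macrophages, where they damp inflammatory genes and raise scavenger receptors such as Cd163. In MHC class II presentation, an alpha and a beta chain assemble on the invariant chain, which is then cut away by cathepsins so that a peptide can bind.

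The targeted gene checked the labels. Nr3c1, the glucocorticoid receptor, had log2 intensities of 7.81, 7.72, 7.61 and 7.83 in the GRBATKO mice, against 8.56, 8.67, 8.68 and 8.51 in the control mice, with no overlap. Correlations between arrays over all probe sets ran from 0.990 to 0.993, and array medians from 4.42 to 4.44. The lower quartile of all probe sets was 3.03 in control 1 and 3.05 in control 4, against 2.84 to 2.90 on the other arrays. Dim probe sets thus read higher on those control arrays, and the effect of this on single genes was not tested. The extraction protocol, against all other labels, names peritoneal macrophages as the RNA source. Ucp1, which uncouples respiration in brown adipocytes, ranked 1 or 2 by intensity on every array. Of 12 measured markers of peritoneal macrophages, 7 had a mean above the 40th percentile of all probe sets. By definition most probe sets lie above that bound, so this count does not set these markers apart from other genes. Fn1, among those above, is also on the monocyte list used here, and Selp, Alox15, Cd5l, Saa3 and F5 lay below. Whether peritoneal macrophages contributed RNA was not tested. Gata6, the transcription factor that defines those cells, lay between 4.18 and 4.83 in GRBATKO and between 3.996 and 4.48 in control mice (difference 0.20, SE 0.16, limma adjusted p = 0.746), and no detection call was at hand for it. All GRBATKO arrays lay in rows C and D and all control arrays in rows A and B of the array plate, so genotype and plate row cannot be told apart in any result.

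Across genotypes the macrophage genes did not pass the threshold. None of the 32 genes had an adjusted p under 0.05 in the limma fit, where 5 of all 21115 probe sets (0.0237%) did. At an unadjusted p under 0.05 there were 3 genes: Lacc1 and Cd14 on the higher side, where 4.22% of all probe sets stood, and Trem2 on the lower side, where 4.4% stood. In Lacc1 and Cd14 every GRBATKO mouse lay above every control mouse, as it did in 3.22% of all probe sets, and no gene showed the reverse, as 2.42% of all probe sets did. Of the 32 genes 15 had a higher and 17 a lower mean in GRBATKO, with a median log2 difference of -0.003, beside -0.002 over all probe sets. In bulk tissue, fewer macrophages and less RNA per macrophage cannot be told apart, so each value is a level in the whole tissue.

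**Figure D1:**
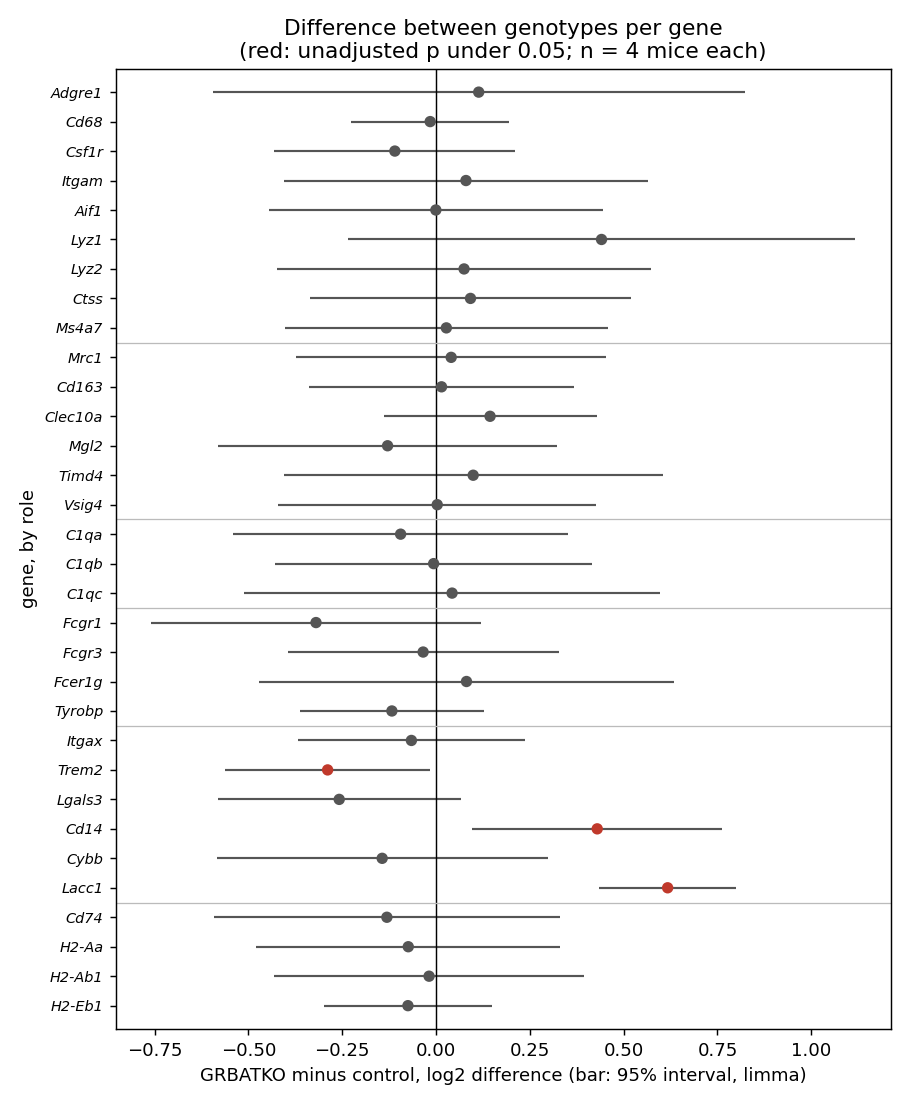
Log2 difference between 4 GRBATKO and 4 control mice for each of the 32 genes, grouped by role from pan-macrophage genes at the top to MHC class II at the bottom. Points are differences from the limma fit, bars are 95% intervals and red points had an unadjusted p under 0.05; the intervals of Lacc1 at 0.62 and Cd14 at 0.43 lie wholly above 0, while that of Lyz1 at 0.44 includes it.

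The genes grouped as pan-macrophage markers had 6 of 9 means higher and 3 lower in GRBATKO, and none passed at an unadjusted p under 0.05. Their median difference was 0.07 with all mice, -0.07 without control 4 and -0.07 without GRBATKO 3. Csf1r, the receptor that macrophages need for survival, had log2 intensities of 6.12, 6.50, 6.41 and 5.98 in GRBATKO mice, against 6.45, 6.53, 6.43 and 6.04 in control mice. The groups overlapped almost fully, and the difference was -0.11 with a 95% interval from -0.43 to 0.21 (SE 0.14, limma adjusted p = 0.846). Adgre1, the adhesion receptor behind the classical mouse macrophage antigen, had 5.05, 5.45, 6.47 and 4.97 in GRBATKO mice, against 5.52, 5.70, 5.40 and 4.86 in control mice. GRBATKO 3 stood 0.76 above the highest control mouse, while the other 3 GRBATKO mice lay within the control range, and the difference of 0.11 had a wide interval, from -0.59 to 0.82. Cd68, a glycoprotein of macrophage lysosomes, varied least of the group, from 6.37 to 6.65 in GRBATKO and from 6.38 to 6.67 in control mice, and its interval was the narrowest of the group, from -0.23 to 0.20.

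Lysozymes cut bacterial cell walls, and mice carry a pair of closely related genes, of which Lyz2 is the macrophage form and Lyz1 the form known from Paneth cells of the intestine. Lyz2 had 8.22, 8.74, 8.90 and 7.97 in GRBATKO mice, against 8.56, 8.39, 8.64 and 7.94 in control mice. Lyz1 had 5.31, 6.02, 4.803 and 4.81 in GRBATKO mice, against 4.66, 4.78, 5.43 and 4.31 in control mice, with its highest value in GRBATKO 2. The differences were 0.07 for Lyz2 (SE 0.22) and 0.44 for Lyz1 (SE 0.30, limma adjusted p = 0.719), and because the genes are near copies, hybridisation of either transcript to the other's probes was not tested. Itgam, the alpha chain of complement receptor 3, Aif1, a calcium-binding protein of the macrophage cytoskeleton, Ctss, the cathepsin that trims the invariant chain, and Ms4a7, a membrane protein of tissue macrophages, differed by 0.08, -0.00, 0.09 and 0.03.

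Genes of resident-type macrophages, many of them scavenger or lectin receptors, had 5 of 6 means higher in GRBATKO, with a median difference of 0.03 and none at an unadjusted p under 0.05. Mrc1, the mannose receptor, had 5.98, 6.55, 6.57 and 6.13 in GRBATKO mice, against 6.51, 6.40, 6.36 and 5.80 in control mice. Its difference was 0.04, with an interval from -0.37 to 0.45. Cd163, the receptor that takes up haptoglobin bound to haemoglobin and a gene that glucocorticoids raise in macrophages, had 4.51, 4.81, 4.54 and 4.07 in GRBATKO mice, against 4.64, 4.25, 4.64 and 4.35 in control mice. The GRBATKO mice held both the highest and the lowest value, and the difference was 0.01 with an interval from -0.34 to 0.37.

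Clec10a and Mgl2 are neighbouring paralogs that code for galactose-binding lectins. Clec10a differed by 0.14 and Mgl2 by -0.13, and neither passed (limma adjusted p = 0.772 and adjusted p = 0.875). Timd4, a receptor for phosphatidylserine on dying cells, had 3.70, 4.40, 3.09 and 3.66 in GRBATKO mice, against 3.65, 3.70, 3.48 and 3.62 in control mice. Vsig4, a complement receptor of resident macrophages, ranged from 2.13 to 2.91 in GRBATKO and from 2.19 to 2.85 in control mice. The spread of Timd4 came from GRBATKO 2, the highest of all 8 mice, and GRBATKO 3, the lowest of all 8.

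The C1q chains, which assemble into the recognition unit of the classical complement pathway and are made largely by macrophages, differed little between genotypes and widely between mice. C1qa had 6.72, 6.75, 7.27 and 6.50 in GRBATKO mice, against 7.28, 6.90, 6.99 and 6.45 in control mice. C1qb had 7.17, 7.33, 7.81 and 7.28 in GRBATKO mice, against 7.62, 7.47, 7.64 and 6.90 in control mice. C1qc had 6.51, 6.90, 7.19 and 6.22 in GRBATKO mice, against 6.84, 6.80, 6.97 and 6.04 in control mice. Control 4 was the lowest of 8 for all 3 chains, and GRBATKO 3 was the highest for C1qb and C1qc. The differences between genotypes were -0.09, -0.01 and 0.04, while each chain spread over 0.83 to 1.15 across the 8 mice; a typical probe set spread over 0.47 and a typical gene of the 32 over 0.87.

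The promoters of the C1q chains are shown because their levels varied together over the mice. RefSeq promoter windows (250 bases before to 50 after a start site, build GRCm38.p6) were at hand for 24 of the 32 genes, C1qb at chr4:136886151-136886450 and C1qc at chr4:136892865-136893164 among them, both on the minus strand. Capitals mark GAGGAA, the core that the myeloid factor PU.1 binds, and AGAACA, the hexamer of the glucocorticoid response element, each searched on both strands, so that the reverse complement is in capitals too.
C1qb: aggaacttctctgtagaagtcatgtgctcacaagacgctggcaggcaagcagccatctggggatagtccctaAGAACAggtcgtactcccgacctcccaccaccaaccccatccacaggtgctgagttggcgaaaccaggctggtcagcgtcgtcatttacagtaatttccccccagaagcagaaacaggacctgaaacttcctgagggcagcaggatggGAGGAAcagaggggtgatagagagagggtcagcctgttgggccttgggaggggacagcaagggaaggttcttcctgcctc
C1qc: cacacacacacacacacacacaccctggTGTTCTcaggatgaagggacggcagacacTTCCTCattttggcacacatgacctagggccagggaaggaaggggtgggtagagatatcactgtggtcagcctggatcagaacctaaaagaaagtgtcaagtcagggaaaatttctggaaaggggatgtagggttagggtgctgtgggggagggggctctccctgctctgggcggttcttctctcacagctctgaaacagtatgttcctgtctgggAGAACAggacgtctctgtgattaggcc
Both windows held both motifs, with no match overlapping another. Over all 26 windows of the 24 genes, GAGGAA was found in 15 (57.7%), against 28.3% of 32851 windows in the table, and AGAACA in 8 (30.8%), against 19.0%. Fcgr3 has overlapping windows that share the same GAGGAA match, so that match was counted in each. Windows with AGAACA belonged to Ctss, C1qb, C1qc, Cd163, Itgax, Lyz1, Mgl2 and Ms4a7. These letters are a description of the sequence and not bound sites.

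Fc receptors bind antibody-coated particles and signal through small adaptors. Of the 4 genes 1 had a higher and 3 a lower mean in GRBATKO. Fcgr1, the high-affinity receptor for immunoglobulin G, had 3.52, 3.18, 3.39 and 3.55 in GRBATKO mice, against 4.25, 3.28, 3.92 and 3.47 in control mice. Control 1 and control 3 stood above the others, and the difference of -0.32 did not pass (SE 0.20, limma adjusted p = 0.688). Fcgr3, a low-affinity receptor, and its signalling chain Fcer1g differed by -0.03 and 0.08. Fcer1g was 7.58 in GRBATKO 3 and 6.51 to 6.75 in the other GRBATKO mice, against 6.33 to 7.13 in control mice. Tyrobp, the adaptor through which TREM2 signals, ran from 4.18 to 4.58 in GRBATKO and from 4.35 to 4.69 in control mice, a difference of -0.12 (interval from -0.36 to 0.13).

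The inflammatory and lipid-associated genes held the differences of smallest p, and they went in opposite directions. Lacc1, an enzyme of nucleoside metabolism that shapes inflammatory output in macrophages, had 5.43, 5.34, 5.38 and 5.43 in GRBATKO mice, against 4.63, 4.89, 4.88 and 4.71 in control mice. The GRBATKO mice lay within 0.09 of each other and at least 0.45 above every control mouse. The log2 difference was 0.62 (SE 0.08, interval from 0.44 to 0.80, limma adjusted p = 0.0660; two-sided exact permutation test, p = 0.0286, the smallest that 4 against 4 mice allow), or 1.53-fold, and it ranked 8 among all probe sets by p. The call crossed the threshold in 3 alternatives, with an intensity trend in the variance prior (adjusted p = 0.0384), after repeated quantile normalization (adjusted p = 0.0350) and without the dim probe sets (adjusted p = 0.0281), over a range of adjusted p from 0.0281 to 0.289 in 20 alternatives. Lacc1 was already known from an earlier look at these data as 1 of the genes of smallest p, so its place here is no independent evidence.

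Lacc1 is shown with its promoter because it held the largest difference of the 32 genes, at chr14:77036568-77036867 on the minus strand of GRCm38.p6, marked by the same rule as above.
Lacc1: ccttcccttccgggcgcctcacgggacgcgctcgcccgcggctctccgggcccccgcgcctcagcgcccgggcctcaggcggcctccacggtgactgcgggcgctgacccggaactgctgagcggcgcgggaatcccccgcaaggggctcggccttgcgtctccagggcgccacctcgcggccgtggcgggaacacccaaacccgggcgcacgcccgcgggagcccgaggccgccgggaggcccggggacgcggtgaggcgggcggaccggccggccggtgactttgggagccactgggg
None of the 3 motifs searched, the third being given with MHC class II, was in this window. Its nearest measured neighbours in RefSeq order, Ccdc122 on one side and 4930431P22Rik on the other, differed by 0.08 (SE 0.10, limma adjusted p = 0.834) and -0.01 (SE 0.08, limma adjusted p = 0.983).

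Cd14, the co-receptor for bacterial lipopolysaccharide, had 4.50, 4.43, 4.50 and 4.24 in GRBATKO mice, against 4.20, 4.20, 4.03 and 3.53 in control mice. The groups did not overlap, but the gap between the lowest GRBATKO and the highest control mouse was 0.04. The difference was 0.43 (SE 0.15, limma adjusted p = 0.509; two-sided exact permutation test, p = 0.0286). Without control 4, the lowest mouse, it was 0.28 (adjusted p = 0.592), and with the pan-macrophage mean as a covariate 0.38 (adjusted p = 0.526).

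Trem2, a lipid receptor of macrophages in obese fat and other lipid-loaded tissue, had 3.99, 4.39, 4.29 and 4.09 in GRBATKO mice, against 4.66, 4.29, 4.35 and 4.63 in control mice. GRBATKO 2 lay above control 2 and control 3, so the groups overlapped. The difference was -0.29 (SE 0.12, limma adjusted p = 0.563; two-sided exact permutation test, p = 0.143), and without control 1 and control 4 it was -0.12 (adjusted p = 0.837). Lgals3, which codes for galectin-3, had 6.45, 6.63, 6.74 and 6.86 in GRBATKO mice, against 7.30, 6.79, 6.97 and 6.66 in control mice, a difference of -0.26 (SE 0.14, limma adjusted p = 0.665).

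Cybb, the catalytic subunit of the phagocyte NADPH oxidase, had 5.76, 5.95, 5.77 and 5.54 in GRBATKO mice, against 6.12, 6.12, 6.11 and 5.24 in control mice. Control 4 alone lay below the GRBATKO mice, and the other 3 control mice above all of them. The difference was -0.14 (SE 0.20, limma adjusted p = 0.854) with all mice and -0.36 without control 4 (adjusted p = 0.537). Itgax, the integrin chain CD11c, differed by -0.07 (SE 0.13).

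**Figure D2:**
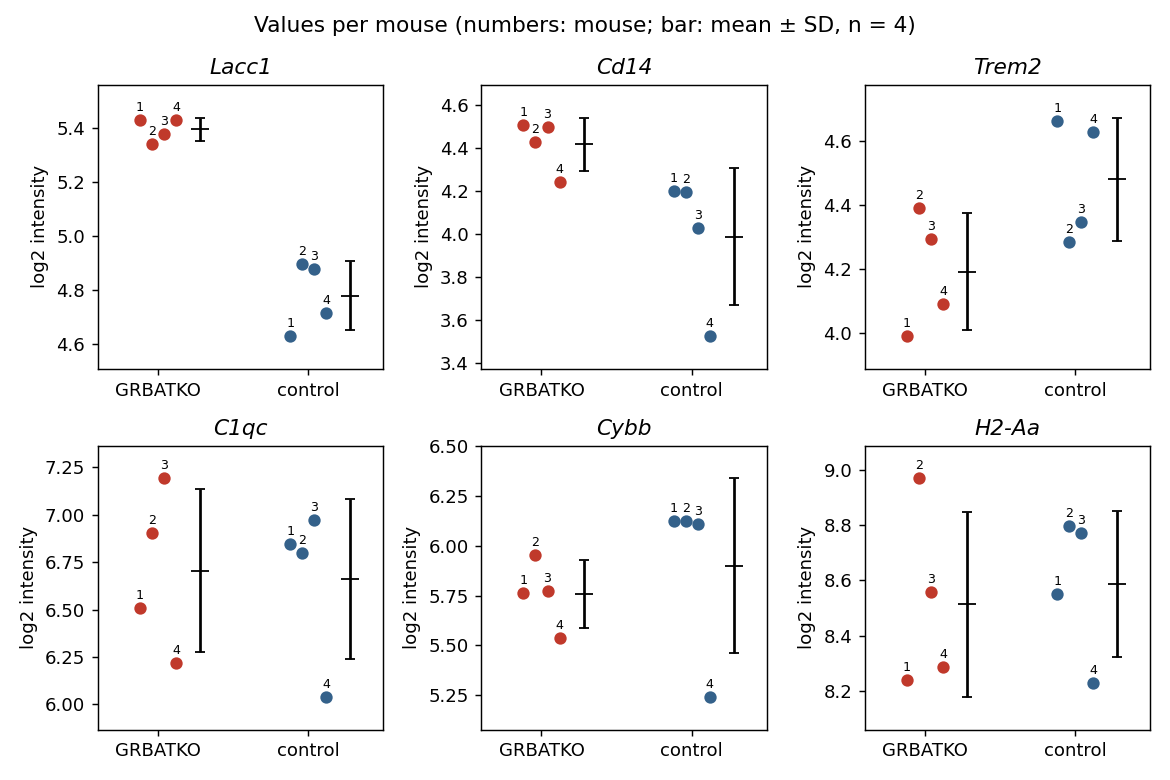
Log2 intensity per mouse of Lacc1, Cd14, Trem2, C1qc, Cybb and H2-Aa, with GRBATKO mice in red and control mice in blue; numbers name the mouse and bars give mean ± SD (n = 4 each). Groups are apart in Lacc1 and Cd14, and control 4 is the lowest mouse in Cd14, C1qc, Cybb and H2-Aa.

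The MHC class II genes were lower on average in GRBATKO in 4 of 4, by 0.13 or less, and none passed. H2-Aa, the alpha chain of the mouse I-A molecule, had 8.24, 8.97, 8.56 and 8.29 in GRBATKO mice, against 8.55, 8.80, 8.77 and 8.23 in control mice. H2-Ab1, its beta chain, had 8.12, 8.76, 8.36 and 8.21 in GRBATKO mice, against 8.49, 8.64, 8.51 and 7.90 in control mice. H2-Eb1, the beta chain of I-E, had 7.55, 7.89, 7.74 and 7.73 in GRBATKO mice, against 7.77, 7.81, 7.99 and 7.63 in control mice. Cd74, the invariant chain, had 8.78, 9.36, 9.04 and 8.90 in GRBATKO mice, against 9.16, 9.49, 9.40 and 8.55 in control mice.

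All 4 genes overlapped between the genotypes, with differences of -0.07 for H2-Aa (interval from -0.48 to 0.33), -0.02 for H2-Ab1, -0.07 for H2-Eb1 and -0.13 for Cd74 (interval from -0.59 to 0.33), with limma adjusted p from 0.850 to 0.983. GRBATKO 2, the highest of the GRBATKO mice in all 4, also held the highest means of the T cell and B cell marker lists, 1.11 and 0.87 above the 8-array mean, where the other 7 mice ran from -0.24 to 0.03 and from -0.30 to 0.05. B cells carry MHC class II themselves. Cd79a, a chain of the B cell receptor complex, was 5.06 in GRBATKO 2 and 3.38 to 3.80 in the other GRBATKO mice, against 3.31 to 4.01 in control mice. The MHC class II list mean was 0.30 in GRBATKO 2 and 0.24 in control 2, whose T and B cell list means were -0.18 and -0.25. Only 3 of the 9 B cell markers, Cd79a, Cd79b and Ighm, had a mean above the 40th percentile of all probe sets, and they disagreed in control 2. Cd79a and Cd79b were the lowest of the 8 mice there, at 3.31 and 3.63, while Ighm was 7.83, below only GRBATKO 2 at 8.54. The part of lymphocytes in these levels was not tested. Without GRBATKO 2 the median difference of the MHC class II genes was -0.19, and with the T cell marker mean as a covariate it was -0.18, against -0.07 with all mice. The T cell marker mean mainly sets GRBATKO 2 apart from all other mice, so both alternatives turn on the same mouse and are not separate evidence.

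H2-Aa at chr17:34287774-34288073, on the minus strand, and H2-Eb1 at chr17:34305617-34305916, on the plus strand of GRCm38.p6, are shown because MHC class II promoters share a Y box, which the factor NF-Y binds beside the RFX complex, and because these genes varied together. Capitals mark CTGATTGG, the Y box letters searched on both strands, with GAGGAA and AGAACA marked as before where present.
H2-Aa: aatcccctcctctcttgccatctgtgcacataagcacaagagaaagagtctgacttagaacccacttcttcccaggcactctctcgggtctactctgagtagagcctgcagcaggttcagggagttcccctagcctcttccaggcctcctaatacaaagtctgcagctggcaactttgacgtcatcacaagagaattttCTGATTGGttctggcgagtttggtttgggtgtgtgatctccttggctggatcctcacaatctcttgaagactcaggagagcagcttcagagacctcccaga
H2-Eb1: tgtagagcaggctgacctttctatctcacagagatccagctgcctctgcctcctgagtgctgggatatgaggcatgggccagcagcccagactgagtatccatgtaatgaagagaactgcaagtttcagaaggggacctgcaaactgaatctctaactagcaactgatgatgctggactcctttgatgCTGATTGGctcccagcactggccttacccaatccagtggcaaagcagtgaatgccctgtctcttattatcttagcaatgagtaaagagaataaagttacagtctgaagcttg
The Y box stood at bases 200 to 207 of the H2-Aa window and at bases 189 to 196 of the H2-Eb1 window, on the same strand as the gene in both. Among the 26 windows these were the only 2 with it (7.69%), against 4.1% of all windows. H2-Ab1 and Cd74 were not among the genes with a window here.

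The machinery that loads and regulates MHC class II was read from a list of 16 further genes, all measured. None had an adjusted p under 0.05; 10 had a higher and 6 a lower mean, with a median difference of 0.03. H2-Ob, the beta chain of the H2-O molecule that restrains peptide loading, had 4.71, 5.44, 4.55 and 4.33 in GRBATKO mice, against 3.60, 4.13, 3.99 and 4.19 in control mice. Its groups did not overlap, and the difference was 0.78 (SE 0.23, limma adjusted p = 0.426). H2-DMb2, a beta chain of the peptide-loading molecule H2-M, had 5.10, 5.31, 4.76 and 4.61 in GRBATKO mice, against 4.72, 4.49, 4.33 and 3.86 in control mice, a difference of 0.60 (SE 0.20, limma adjusted p = 0.498). Ciita, the master activator of the class II genes, differed by 0.04. Both H2-Ob and H2-DMb2 were highest in GRBATKO 2, the mouse highest in lymphocyte markers, and the part of lymphocytes in their differences was not tested.

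Many of the genes were high or low in the same mice. Control 4 was the lowest of the 8 arrays for 18 of the 32 genes, where it was the lowest for 12.98% of all probe sets. GRBATKO 3 was the highest for 11 of the 32, among them 6 of the 9 pan-macrophage genes, and for 11.9% of all probe sets. The list mean of all 32 genes was -0.12, 0.14, 0.19 and -0.19 in GRBATKO mice, against 0.15, 0.07, 0.09 and -0.34 in control mice, as deviations from the 8-array mean. GRBATKO 1, GRBATKO 4 and control 4 were therefore the mice with low macrophage gene levels, and they came from both genotypes. Without control 4 the median difference of the 32 genes was -0.12, with 26 lower and 6 higher, while the median over all probe sets was 0.003; without GRBATKO 3 it was -0.13.

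**Figure D3:**
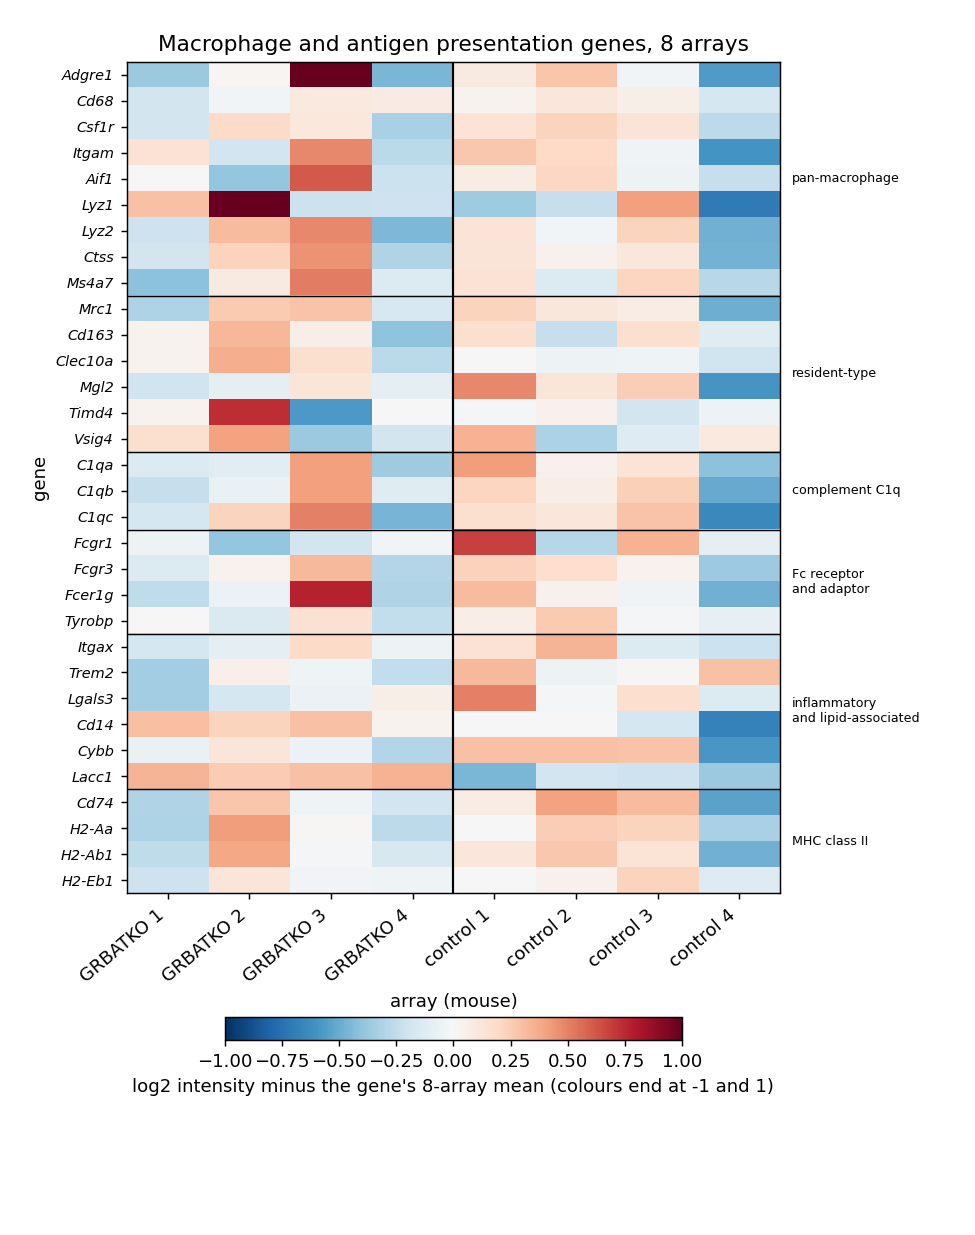
Log2 intensity of each of the 32 genes minus its mean over the 8 arrays, with GRBATKO mice left of the line, control mice right of it, and genes grouped by role; colours end at -1 and 1. The control 4 column is blue in most rows, GRBATKO 3 is red in most pan-macrophage and C1q rows, and Lacc1 is red in all 4 GRBATKO and blue in all 4 control mice.

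Pairs of genes showed the same. Over 496 pairs of the 32 genes, with values centred within each genotype, the median Pearson correlation across the 8 mice was 0.50 and 83.1% were above 0, beside a median of 0.001 and 50.1% over all pairs of probe sets. These correlations share arrays, RNA preparations and normalization, and with 8 mice 5% of all pairs of probe sets exceeded 0.69, so single pairs carry little. Within the C1q chains the median was 0.90, within MHC class II 0.89, within the pan-macrophage genes 0.63, within the resident-type genes 0.37 and within the inflammatory and lipid-associated genes 0.19.

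In 15 pairs that were tested singly on uncentred values, 8 had an adjusted p under 0.05 over the 15, by exact permutation of pairings. H2-Aa and H2-Ab1 gave Pearson r = 0.947 (exact p = 0.000422, adjusted p = 0.00632) and Spearman rho = 0.976 (exact p = 0.000397, adjusted p = 0.00595), and r = 0.954 without the 2 arrays farthest from the median of H2-Aa. C1qa and C1qb gave r = 0.905 (exact p = 0.00206, adjusted p = 0.00884) and rho = 0.905 (exact p = 0.00456, adjusted p = 0.0137), and r = 0.873 without the 2 farthest arrays. Csf1r and H2-Aa, a macrophage gene and a presentation gene, gave r = 0.897 (exact p = 0.00575, adjusted p = 0.0142) and rho = 0.833 (exact p = 0.0154, adjusted p = 0.0330), and r = 0.872 without the 2 farthest arrays.

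The relation of C1qb and C1qc, r = 0.895 (exact p = 0.00236, adjusted p = 0.00884) and rho = 0.905 (exact p = 0.00456, adjusted p = 0.0137), rested partly on the outermost mice, since r was 0.698 (exact p = 0.139) without the 2 farthest arrays. Pairs of close relatives did not all follow each other. Clec10a and Mgl2 gave r = 0.2495 (exact p = 0.559, adjusted p = 0.566) and rho = 0.190 (exact p = 0.665, adjusted p = 0.665). Lyz1 and Lyz2 gave r = 0.476 (exact p = 0.235, adjusted p = 0.294) and rho = 0.452 (exact p = 0.267, adjusted p = 0.334). Without the 2 farthest arrays these were r = 0.542 and r = 0.166.

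**Figure D4:**
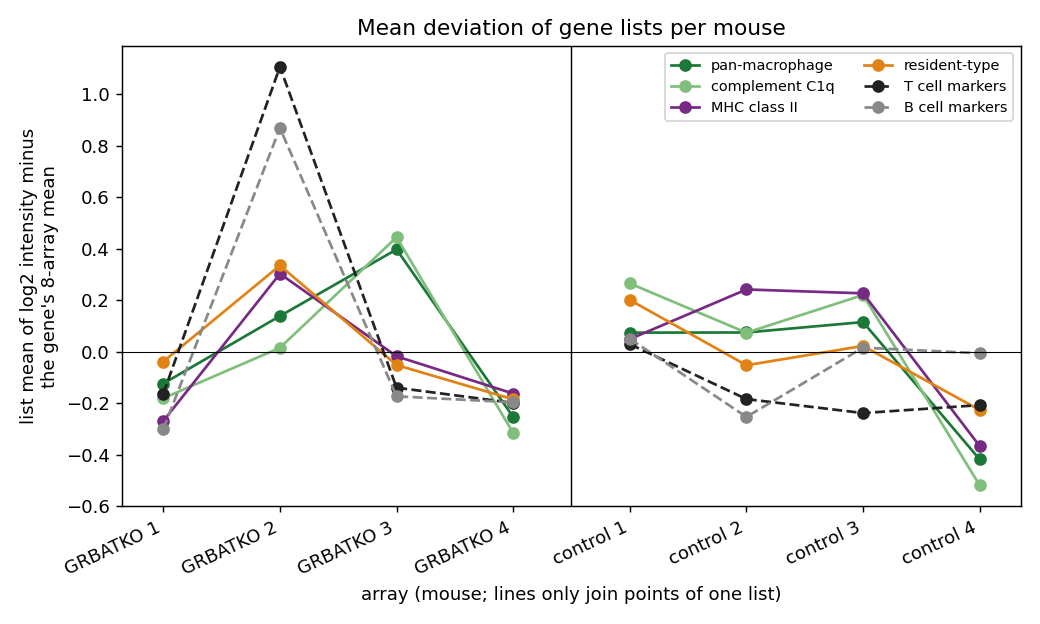
Mean deviation from the 8-array mean (log2) per mouse for 4 groups of the genes, drawn as full lines, and for T and B cell markers, drawn as dashed lines, with GRBATKO mice left of the line and control mice right of it. Control 4 is lowest in the 4 full lines, and GRBATKO 2 stands at 1.11 and 0.87 in the lymphocyte markers.

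Each gene was then set against the mean of the pan-macrophage genes, with values centred within each genotype and a gene left out of its own mean. The correlation was above 0.5 in 25 of 32 genes, against 11.2% of all probe sets, and at least 0.9 in 7, against 0.412% of all probe sets, led by C1qc (0.991), Ctss (0.990), Fcgr3 (0.962), Lyz2 (0.951) and C1qb (0.915). At the other end were Vsig4 (-0.229), Timd4 (-0.227), Lacc1 (0.0521), Fcgr1 (0.0851) and Trem2 (0.133). Of all probe sets, 87 reached 0.9 with that mean and 76 lay at or below -0.9, so values of this size also arise outside macrophage genes with 8 mice.

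Trem2 and Lacc1, whose unadjusted p was under 0.05, were thus among the 5 genes least tied to the pan-macrophage mean, while Cd14 followed it at 0.753. With that mean as a covariate the differences were 0.62 for Lacc1 (limma adjusted p = 0.158), 0.38 for Cd14 and -0.30 for Trem2 (limma adjusted p = 0.660). The 10 named probe sets outside the 32 genes that followed the mean most closely were Mpeg1, which codes for the pore-forming perforin-2 of macrophages (0.983), Ubap1 (0.982), Mms22l (0.979), Mmp27 (0.977), Tnfaip8 (0.972), 1700048O20Rik (0.971), Camk1d (0.970), Rnf19a (0.964), Oas1b (0.963) and the lysosomal protease Ctsc (0.956), all over 8 mice.

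**Figure D5:**
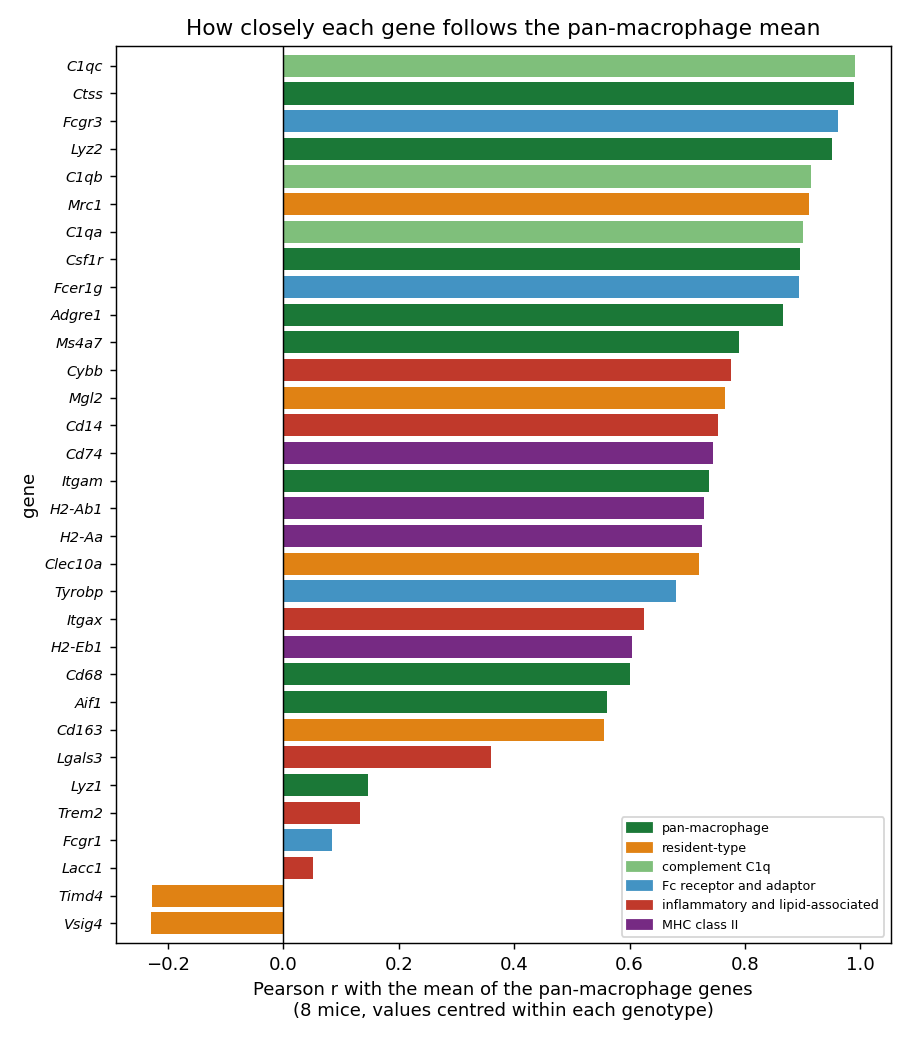
Pearson correlation of each gene with the mean of the pan-macrophage genes over 8 mice, values centred within each genotype and the gene itself left out of the mean; colours give the role. The bars run from 0.991 for C1qc to -0.229 for Vsig4, with Lacc1 at 0.0521.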

How the data were processed

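RNA from brown adipose tissue of 8 mice was hybridised to Affymetrix Mouse Gene 1.1 ST arrays. The deposited table holds 1 intensity per probe set and array, and the submitters' processing notes name RMA, a robust multi-array average, without a version; a batch step is not stated in the sources used here. Values ran from 2.07 to 9168, so the deposited intensities were on a linear scale, and log2 was taken of these deposited values. Of 21115 probe sets 20405 carried 1 gene symbol of the platform annotation, 710 carried none and none carried several. Depth has no meaning for arrays; their number limits the precision.

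Genotypes were compared by lmFit and eBayes of limma 3.58.1 (R 4.3.3) over all probe sets, genotype only, with Benjamini-Hochberg adjustment over all of them, a threshold of 0.05, and 6 residual and 3.46 prior degrees of freedom. Single genes also had a two-sided exact permutation test over 70 arrangements. The labels do not say whether the samples were processed separately, so p-values measure the spread between them, which may be partly technical. Same-numbered mice did not deviate together (correlations -0.06 to 0.09), so no replicate block was used. The script was tested on simulated data. The genes, lists and pairs were chosen with earlier results of these data known. All 32 genes were named; of other lists, members with adjusted p under 0.05 (at most 4), otherwise the 2 of smallest unadjusted p; further, the 10 probe sets most like the pan-macrophage mean, and the 5 genes most and the 5 least tied to it. Cd79a, Ighm, Gata6, Ciita, Ppargc1a, Prdm16 and the neighbours of Lacc1 were named after their values were seen. Alternatives were other priors and normalizations, filters on dim and flat probe sets, blocks, each mouse left out, and marker means as covariates. Some further genes of these lists are not reported here. Promoters came from RefSeq, GRCm38.p6. Figures were drawn with matplotlib 3.10.9.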

Additional observations from a re-analysis of the deposited data

Results flagged for a closer look

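Among 64 groups of 4 mice (32 genes, 2 genotypes), 2 held a mouse far from its group by Dixon's criterion, where chance flags about 1 in 20 groups. Both were control 4 at the low end. Cybb read 5.24 there, while its group otherwise spanned 6.11 to 6.12, and Ctss read 5.77, while its group otherwise spanned 6.29 to 6.37. Control 4 was also the lowest control mouse in the mean of all 6 role groups.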

How the results depend on the processing

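Of the 32 genes none passed the threshold in 17 of 20 alternatives. The exceptions were an intensity trend in the prior, repeated quantile normalization and leaving out dim probe sets, with 1 gene each, Lacc1. Over all probe sets the count was 5, and 30, 8 and 14 in those alternatives, 10 with flat probe sets left out, 1 with a replicate block, 3 without control 1 and control 4, and 3 to 5 when each mouse was left out. With the replicate block Lacc1 had adjusted p = 0.289, and none of the 32 genes passed; Trem2 then had no unadjusted p under 0.05. Genes with an unadjusted p under 0.05 numbered 3, and 2 to 5 when each mouse was left out, the 5 being Lacc1, Cd14, Cybb, Mgl2 and Lgals3 without control 4. With all mice 4.22% of all probe sets stood on the higher and 4.4% on the lower side at that p. The shares in the fits with a mouse left out are not given here, so those counts cannot be set against them. Lacc1 and Cd14 kept an unadjusted p under 0.05 in all 20 alternatives, and Trem2 in 10 of 19. The sign of the difference held in every alternative for 12 genes and turned in at least 1 for 20, none of which had an unadjusted p under 0.05 with all mice. Group medians moved by less than 1 SD between mice in every alternative run, although that of the 32 genes ran from -0.13 to 0.06 when each mouse was left out. Of 15 gene pairs 8 passed, and 7 to 9 in the alternatives; H2-Ab1 and H2-Eb1, r = 0.783 (exact p = 0.0217), did not pass after repeated quantile normalization (r = 0.715) or without 2 arrays (r = 0.756). The alternatives with a marker mean as covariate were added after the data were seen. The causes of these shifts were not tested. With 4 mice a group the precision is limited: 95% intervals of the 32 genes that included 0 leave differences in either direction unresolved.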

Other observations

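Further lists of macrophage biology held no probe set with an adjusted p under 0.05. Resident macrophage genes outside the 32, such as Folr2 and Lyve1, had 6 of 13 means higher in GRBATKO and a median difference of -0.003. In that list Pf4, which codes for a chemokine, differed by 0.18 and Fcrls by 0.32. Lipid-associated genes had 6 of 11 higher, and Atp6v0d2 differed by -0.13. Ctsd, the lysosomal aspartic protease, had 12.00, 11.98, 12.00 and 11.96 in GRBATKO mice, against 11.85, 11.90, 11.84 and 11.74 in control mice. This was a small difference of 0.15 without overlap (SE 0.07, limma adjusted p = 0.563). Ctsd read above all of the 32 genes, whose highest value was 9.49, for Cd74 in control 2. Which cells of the tissue gave the Ctsd signal was not tested. Growth and transcription factors had 4 of 11 higher; Spic, a factor of iron-recycling macrophages, differed by -0.22 without overlap and the receptor chain Csf2rb by 0.20. Inflammatory cytokines and enzymes had 2 of 12 higher, with Tnf at -0.44 (SE 0.19, limma adjusted p = 0.564), 4.31 in control 1, and Il6 at 0.23. Only 3 of these 12 had a mean above the 40th percentile of all probe sets, and Tnf and Il6 lay below it. The list mean was highest in control 1 (0.17) and control 4 (0.09), the arrays with the raised lower quartile. MHC class I presentation had 1 of 10 higher and a median of -0.12, with H2-K1 at -0.23 and its activator Nlrc5 at -0.16.

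Markers of other cells were read the same way. Monocyte markers had 1 of 8 means higher (Vcan -0.28, Chil3 -0.39), dendritic cell markers 4 of 10 (Cd209a 0.24, Flt3 -0.29), B cell markers 7 of 9 (Iglc2 -0.35, Cd79b 0.44), T cell markers 8 of 9 (Trac 1.05, Il7r 0.46), neutrophil markers 6 of 10 (Mmp8 0.25, Ltf -0.15), mast cell markers 4 of 8 (Kit 0.46, Mcpt4 -0.33), peritoneal macrophage markers 6 of 12 (Prg4 0.28, Cd5l -0.32), brown adipocyte markers 8 of 10 (Dio2 -0.53, Adipoq 0.10), endothelial markers 2 of 8 (Tie1 -0.14, Erg -0.09), fibroblast and mesothelial markers 4 of 8 (Lum 0.25, Msln 0.14) and skeletal muscle markers 1 of 10 (Myh4 -1.40, Pvalb -1.02). Trac, the constant chain of the T cell receptor, was 4.49, 6.48, 5.58 and 4.44 in GRBATKO mice, against 4.47, 4.42, 3.83 and 4.07 in control mice (limma adjusted p = 0.554), highest in GRBATKO 2. The T and B cell counts lean on that mouse, with list means of 1.11 and 0.87. The other GRBATKO mice had -0.20 to -0.14 and -0.30 to -0.17, against -0.24 to 0.03 and -0.25 to 0.05 in control mice. Il7r and Cd79b were 4.90 and 5.73 in GRBATKO 2, and 2.85 to 3.06 and 3.80 to 4.03 in the other GRBATKO mice. Muscle markers had a list mean of 3.05 in control 3, 1.42 in GRBATKO 4 and -0.01 in control 4, against -0.99 to -0.68 in the other mice. Control 4 thus also read higher in this list than those other mice. Centred within genotype, the means of other resident macrophage genes and of brown adipocyte markers followed the pan-macrophage mean at r = 0.919 and r = 0.831 over 8 mice. Those of mast cell and monocyte markers followed it at r = 0.816 and r = 0.786, and those of T and B cell markers at r = 0.226 and r = 0.172. That of neutrophil markers ran against it at r = -0.734, but only 3 of those 10 genes had a mean above the 40th percentile. The neutrophil means ran only from -0.10 to 0.06, highest in control 4, and the brown adipocyte means only from -0.10 to 0.12. Among the brown adipocyte markers Dio2, Ppargc1a and Prdm16 spread over 1.23, 1.21 and 0.71 across the 8 mice, and the others over 0.10 to 0.30. The mean of that list therefore moved mainly with those named genes.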
